A study of Mus musculus with 4 samples.

Results

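Pvt1-high cells were a small set of tumour cells in an allograft grown from preSC, a mouse neuroendocrine cell line, in the library labelled preSC_WT. They were chosen by their counts of unique molecular identifiers (UMIs, each standing for 1 captured RNA molecule) in that library. A cell had to have at least 1000 detected genes, at most 15% mitochondrial UMIs, at least 4 UMIs of Pvt1 and none of Mycn, Ptprc, Col1a1 or Pecam1. The rule found 126 cells of 18559 barcodes in the library and of 56220 barcodes in the series. They made up 1.02% of the 12337 cells that passed the same gates on quality and on Ptprc, Col1a1 and Pecam1 (exact Clopper-Pearson 95% interval 0.851 to 1.21%). Pvt1 chose the cells, and Myc, listed with it as a marker, did not.

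The allograft labelled preSC_WT carried the genotype WT by its labels, and the other allograft, labelled preSC_CracdKO, the genotype CracdKO. Both came from the preSC line, and the series also holds the lung tumours RPR2 and CRPR2. Each of the 4 groups was 1 library. The spread between tumours is thus unknown, no p-value was computed, and intervals cover counting error only. The labels give neither the alleles of the line nor the host strain, age or number of pooled tumours. preSC lines are known as precancerous neuroendocrine cells from mouse lungs that lack Rb1 and Trp53. The comparison cells were 9337 cells of the preSC_WT library that passed the same gates, had no UMI of Pvt1 or Mycn, and had fewer than 3 UMIs in all of the marker genes of immune, stromal, endothelial and red cells. Their depth had a median of 4612 UMIs, against 6463 UMIs in the Pvt1-high cells. The files list Cracd, a regulator of actin capping, under its earlier symbol C530008M17Rik. It had 76.6 CPM (UMIs scaled to 1e6 in all) in the comparison cells chosen alike in preSC_CracdKO and 3.84 CPM in those of preSC_WT, which goes against the labels, although a 3' tag need not lie in the deleted part.

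Pvt1 is a long noncoding RNA gene that lies directly downstream of Myc. In human and mouse cancers the stretch of chromosome that holds both genes is often gained as a unit. Myc is a transcription factor that pairs with Max, binds the E-box CACGTG and is best known for raising genes of ribosome production and metabolism. Members of the Myc family, Myc, Mycl and Mycn, are known drivers of subsets of small cell lung cancer, the neuroendocrine carcinoma that preSC cells model.

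Pvt1 had 3104 UMIs in the 126 cells, or 2889.5 CPM, and the UMIs per cell had a lowest value of 4, a median of 14 and a highest value of 153. These values describe the choice and support nothing by themselves. Just inside the threshold, the 11 cells with exactly 4 Pvt1 UMIs had 112 CPM of Fam84b and 7 of them lay in the cluster of cells that held most Pvt1-high cells. Just outside it, the 38 cells with exactly 3 had 47.9 CPM of Fam84b and 10 lay in that cluster. The Fam84b intervals of the 11 and the 38 cells, 53.6 to 206 and 28.4 to 75.7 CPM, overlapped. Both sets had 55.9 CPM of Myc, from 5 UMIs (18.2 to 130 CPM) and 21 UMIs (34.6 to 85.4 CPM). Such few counts do not show that the levels were equal. Applied to the other libraries, the rule found 216 cells in preSC_CracdKO, where no cell had more than 11 Pvt1 UMIs, 1 cell in CRPR2 and none in RPR2.

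The expressed genes closest to Pvt1 on chromosome 15, which the rule did not use, were higher in the Pvt1-high cells. Positions are on mm10 from GENCODE. Pvt1 spans chr15:62037986-62378096 on the plus strand, and Myc, at chr15:61985391-61990374, starts 0.053 Mb before it. A pair of long intergenic noncoding RNA genes without a known role, AC140304.2 at chr15:61157869-61165735 and AC140304.1 at chr15:61184151-61241065, start 0.88 Mb and 0.85 Mb before Pvt1. Fam84b, a protein-coding gene whose role in these cells is not established, lies at chr15:60818994-60853778 on the minus strand. The last 150 bases of the transcript of each noncoding gene in GENCODE are shown because the library tags 3' ends and because these RNAs were close to absent from the comparison cells.
AC140304.2: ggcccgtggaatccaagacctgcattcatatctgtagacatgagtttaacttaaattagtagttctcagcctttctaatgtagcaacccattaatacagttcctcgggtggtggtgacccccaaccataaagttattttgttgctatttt
AC140304.1: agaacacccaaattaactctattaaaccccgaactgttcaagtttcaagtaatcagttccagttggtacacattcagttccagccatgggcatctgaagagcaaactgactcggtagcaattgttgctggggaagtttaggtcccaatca
Both run 5' to 3' on the plus strand, and neither holds the polyadenylation hexamer AATAAA, so no base is in capitals.

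Fam84b had 725 UMIs in the Pvt1-high cells, or 675 CPM, against 20.4 CPM in the comparison cells, a ratio of 33.1 (95% interval 30.1 to 36.4). Its UMIs per cell had a lowest value of 0, a median of 4 and a highest value of 39 in the Pvt1-high cells, against 0, 0 and 3 in the comparison cells. The ranges overlapped at the low end, and 71 of the 77 gated cells of the library with at least 4 Fam84b UMIs were Pvt1-high. Fam84b was seen in 85.7% of Pvt1-high cells and in 10.2% of comparison cells. After thinning every cell to 2000 UMIs, which left out 3 Pvt1-high and 370 comparison cells, the shares were 62.5% and 4.13%. In cells with a Ptprc UMI, which are blood cells or droplets that hold their RNA, the unthinned share was 7.26% at a median of 4451 UMIs.

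AC140304.2 had 52 UMIs in the Pvt1-high cells, or 48.4 CPM, and 0 in the comparison cells. Against a floor of 3 UMIs over all comparison cells it was at least 841-fold higher, and the exact 95% interval of the ratio starts at 660.4. AC140304.1 had 48 UMIs, or 44.7 CPM, in the Pvt1-high cells and 2 UMIs in the comparison cells. At least 1 of these RNAs was seen in 45 Pvt1-high cells and in 2 comparison cells.

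Myc itself was higher, by a smaller ratio than Fam84b. It had 128 UMIs in the Pvt1-high cells, or 119 CPM, against 18 CPM in the comparison cells, a ratio of 6.63 (5.47 to 7.98). Per cell, Myc had a lowest value of 0, a median of 1 and a highest value of 9 UMIs in the Pvt1-high cells, against 0, 0 and 4 in the comparison cells. A UMI of Myc was found in 50.8% of Pvt1-high cells and 8.49% of comparison cells, and in 21.2% and 3.32% after thinning to 2000 UMIs. Cells with a Ptprc UMI, which include lymphoid cells known to express Myc, had 28.6 CPM.

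None of the 6 genes farther out, within 3 Mb and with at least 5 CPM, was 1.5-fold higher. Trib1, a pseudokinase gene that starts 2.39 Mb before Pvt1, had 121 CPM in the Pvt1-high cells and 203 CPM in the comparison cells. Fam49b, a regulator of actin remodelling 1.89 Mb after it, had 94.95 and 96.3 CPM in Pvt1-high and comparison cells, a ratio of 0.986 (0.803 to 1.20). Asap1, a regulator of Arf GTPases, had 101 CPM in Pvt1-high and 157 CPM in comparison cells. Nsmce2, a SUMO ligase, Sqle, an enzyme of sterol synthesis, and Washc5, a subunit of an endosomal actin complex, had ratios of 1.02, 0.850 and 1.20, each with an interval that included 1. Of the genes within 3 Mb that had at least 5 CPM, those that were higher thus lay from Fam84b to Pvt1, and no gene with that level was annotated between Pvt1 and Fam49b. Below that level, the long intergenic noncoding gene AC134453.1, which starts 0.53 Mb after Pvt1, had 3 UMIs in the Pvt1-high and 8 UMIs in the comparison cells, a ratio of 18.2 (3.11 to 75.9). AC160335.1, a gene of the same kind that starts 0.50 Mb before Pvt1, had 5 and 7 UMIs in Pvt1-high and comparison cells, a ratio of 34.7 (8.68 to 127). The noncoding gene 4930402D18Rik, 1.13 Mb before Pvt1, had 2 and 1 UMIs, a ratio of 97.1 (5.05 to 5728). Beyond Fam84b, Gm2682, 1.92 Mb before Pvt1, had 2 and 11 UMIs, a ratio of 8.83 (0.951 to 40.4). Such low counts do not place the edges of the higher stretch.

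**Figure D1:**
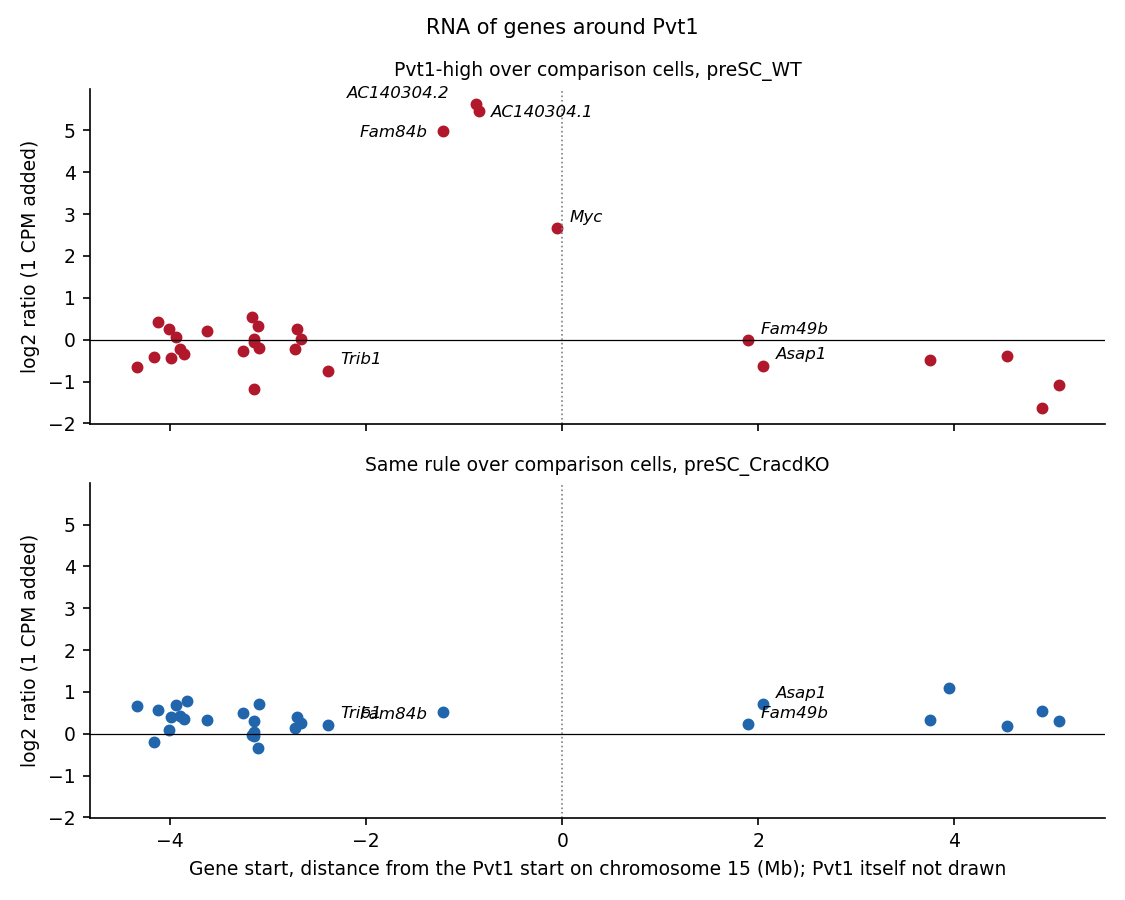
Each point is a gene with at least 5 CPM in the higher set of cells, placed by the distance of its start from that of Pvt1 in Mb (x axis) and by its log2 ratio with 1 CPM added (y axis), for the Pvt1-high cells of preSC_WT (upper panel) and the cells chosen by the same rule in preSC_CracdKO (lower panel). In the upper panel AC140304.2, AC140304.1, Fam84b and Myc stand at 5.63, 5.46, 4.98 and 2.66, and Trib1, Fam49b and Asap1 lie at or below 0.

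The 216 cells that the rule chose in preSC_CracdKO did not show the same levels at these genes. Fam84b had 10.2 CPM in those cells and 6.83 CPM in the comparison cells of that library, a ratio of 1.49 (0.992 to 2.16). Myc had 2.71 and 2.56 CPM in the same order, from 8 UMIs in the 216 cells. Neither the ratio of Fam84b nor that of Myc was separated from 1 at this depth. The chosen cells of that library were deep, with a median of 12013 UMIs against 5593 in their comparison cells, and their Pvt1 level was 348 CPM. Only 107 genes (1.41% of 7593) were higher there by 2-fold or more and 4 (0.0527%) lower, with at least 20 CPM in the higher set.

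Within the Pvt1-high cells of preSC_WT, Fam84b followed Pvt1. The 49 cells with 4 to 9 Pvt1 UMIs had 317 CPM of Fam84b (265 to 377), the 49 cells with 10 to 29 had 744 CPM (660.3 to 836), and the 28 cells with 30 or more had 1093 CPM (975 to 1222). Myc had 59.0 CPM (37.8 to 87.8), 157 CPM (119.6 to 202) and 155 CPM (112 to 208) in these 3 bins in the same order, so it was lowest in the first and alike in the others. Across the 126 cells, the Spearman correlation of Pvt1 per UMI with Fam84b per UMI was 0.54, with Myc 0.24 and with Trib1 0.01, and Pearson's r with Fam84b was 0.39. In the 106 cells of the main cluster the Spearman correlations with Fam84b, Myc and Trib1 were 0.52, 0.23 and 0.09. The main cluster held 37 of the 49 cells with 4 to 9 Pvt1 UMIs, 44 of the 49 with 10 to 29 and 25 of the 28 with 30 or more, so the bins also differed in make-up. All of these cells share a library and both measures are divided by the same total.

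**Figure D2:**
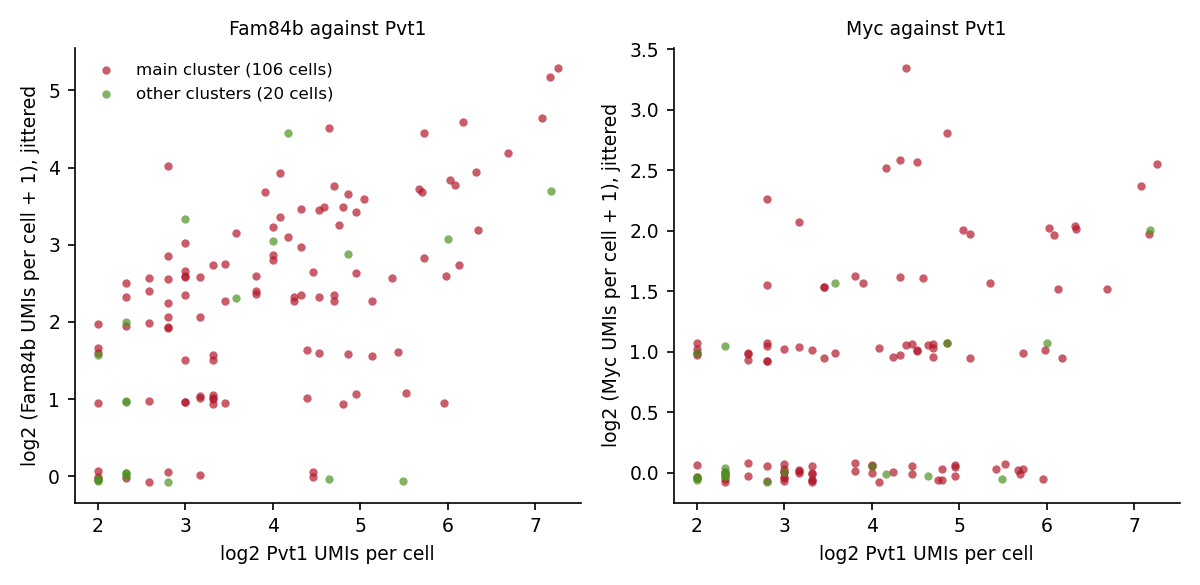
Each point is a Pvt1-high cell, with log2 Pvt1 UMIs on the x axis and log2 of the Fam84b (left) or Myc (right) UMIs plus 1, with a small jitter, on the y axis; red cells belong to the main cluster (106) and green cells to other clusters (20). Fam84b is higher in cells with more Pvt1, and the cells without a Fam84b UMI, 18 in all, lie mostly at low Pvt1.

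The Pvt1-high cells were also alike in genes that the rule did not use. The gated cells of the library were clustered after leaving out Mycn and the 11 genes of the file in the stretch of chromosome 15 from Fam84b to just beyond Pvt1. Of the 19 clusters, 1 held 106 of the 126 Pvt1-high cells (84.1%, 76.6 to 90.03%) and 19 of the 9337 comparison cells (0.203%). This main cluster had 163 cells. Its 57 other cells comprised 19 with no Pvt1 UMI, 36 with 1 to 3, and 2 with at least 4 and a Mycn UMI.

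Genes of the window stood out in those 57 cells as well, although neither the rule nor the clustering chose them on those genes. Fam84b had 197 CPM, Myc 53.4 CPM and AC140304.2 20.0 CPM in the 57 cells, against 20.3, 17.9 and 0 CPM in comparison cells outside the cluster. In the 19 cells of the cluster without a Pvt1 UMI, Fam84b had 9 UMIs, or 118 CPM (53.8 to 223), and Myc 4 UMIs, or 52.3 CPM (14.2 to 134). The Myc interval of those 19 cells includes the level of the comparison cells.

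The 20 Pvt1-high cells outside the main cluster were spread over 9 clusters, and 10 of them had only 4 or 5 Pvt1 UMIs. They had 257 CPM of Fam84b and 31.6 CPM of Myc, against 826 and 151 CPM in the 106. Rtn1, a reticulon of the endoplasmic reticulum in neuroendocrine cells, was seen in 9 of the 20 and in all 106. One cell with 53768 UMIs held 34.9% of the Pvt1 UMIs of the 20. The doublet caller Scrublet marked 1 of the 126 Pvt1-high cells, outside the main cluster, and 26 of the comparison cells (0.278%).

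Markers of neuroendocrine cells, taken here as markers of tumour cells, were found in both sets. Calca, which encodes a neuropeptide precursor, had 2306 CPM in Pvt1-high and 3328 CPM in comparison cells, and was seen in 124 of the 126 Pvt1-high cells and in 8871 of the 9337 comparison cells. Uchl1, a neuronal ubiquitin hydrolase, had 680.5 and 450.9 CPM in the same order, Chga, a granule protein, 254 and 248 CPM, and Insm1, a neuroendocrine transcription factor, 154 and 256 CPM. The whole list summed to 10006 CPM in Pvt1-high and 13704 CPM in comparison cells. Calca alone does not set tumour cells apart in this library. Gated clusters in which 77.7 to 89.8% of cells had at least 3 UMIs of non-tumour markers had 1101 to 2650 CPM of it. Among the marker genes of other cell types 1 reached 5 CPM, the fibroblast gene Dcn, with 36.3 CPM in Pvt1-high and 41.4 CPM in comparison cells. Macrophage markers summed to 17.7 CPM in Pvt1-high cells and 6.77 CPM in comparison cells, T cell markers to 6.52 and 1.74 CPM, and all neutrophil and red cell markers were at 0 in the Pvt1-high cells. The comparison cells were gated on these markers and the Pvt1-high cells were not, and 8 Pvt1-high cells had at least 3 such UMIs. With the same limit on both sets, 118 Pvt1-high cells had a Myc ratio of 7.31, with 468 genes higher and 761 lower. Of the Pvt1-high barcodes, 1 was shared with CRPR2 and 1 with preSC_CracdKO.

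Across the genome, 388 of 8045 genes (4.82%) were higher in the Pvt1-high cells by 2-fold or more with at least 20 CPM in the higher set, and 542 (6.74%) were lower. With the threshold at 3 Pvt1 UMIs, which took in 164 cells, the counts were 224 and 173. In the Pvt1-high cells of the main cluster, set over comparison cells outside it, 613 of 8172 genes (7.5%) were higher and 1038 (12.7%) lower. Zfp536, a zinc finger repressor of neuronal differentiation, had 75.4 CPM in Pvt1-high and 0.211 CPM in comparison cells. Hdgfl3, a growth factor-like protein that binds tubulin, had 171 and 0.499 CPM in the same order, and Rtn1 had 788 and 4.10 CPM, a ratio of 192 (165 to 224).

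Rtn1 had a lowest value of 0, a median of 6 and a highest value of 22 UMIs per Pvt1-high cell, against 0, 0 and 15 per comparison cell. It was seen in 115 of the 126 Pvt1-high cells (91.3%) and in 0.825% of comparison cells. Grin2b, an NMDA receptor subunit, had 107 CPM in Pvt1-high and 0.594 CPM in comparison cells. Zfp423, a zinc finger factor of neural and fat cell precursors, had 24.2 and 0.115 CPM, and Wipf1, a partner of the actin regulator WASP, had 40.0 and 0.230 CPM. Galnt17, a glycosyltransferase, had 22.3 and 0.192 CPM, Rapgef5, an activator of Rap GTPases, 30.7 and 0.288 CPM, and Rnf150, a ring finger protein, 25.1 and 0.249 CPM. The unnamed transcript AC154546.2 had 27.0 and 0.211 CPM.

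High levels of these genes were not limited to the Pvt1-high cells of the main cluster. In the 57 cells of the cluster that were not Pvt1-high, Rtn1 had 1004 CPM, Hdgfl3 260.1 CPM and Zfp536 107 CPM, and 11 of the 12 highest genes had at least 20 CPM. Clustering used these genes, so no test follows. Of the comparison cells' 26 Hdgfl3 UMIs, 19 were in the 19 comparison cells of this cluster.

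Some of the highest genes were also expressed in the other allograft. Rtn1 had 477 CPM, Zfp536 137 CPM and Hdgfl3 84.1 CPM in the comparison cells of preSC_CracdKO, and 4 of the 12 highest genes reached 20 CPM there. Grin2b, AC140304.2 and AC140304.1 had 0.0324, 0.146 and 0.114 CPM in those cells. Cracd had 87.5 CPM in the Pvt1-high cells and 3.84 CPM in the comparison cells of preSC_WT, a ratio of 22.8 (17.7 to 29.3). The epithelial genes Krt8, a keratin, and Epcam, an adhesion protein, were higher in both sets of preSC_WT than in preSC_CracdKO. Krt8 had 883 CPM in the Pvt1-high and 2079 CPM in the comparison cells of preSC_WT. It had 15.5 CPM in the comparison cells of preSC_CracdKO. Epcam had 753, 1732 and 36.7 CPM in the same order. Krt8 was not limited to tumour cells in preSC_WT. Gated clusters in which 77.7 to 89.8% of cells had at least 3 UMIs of non-tumour markers had 559 to 1616 CPM of it.

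**Figure D3:**
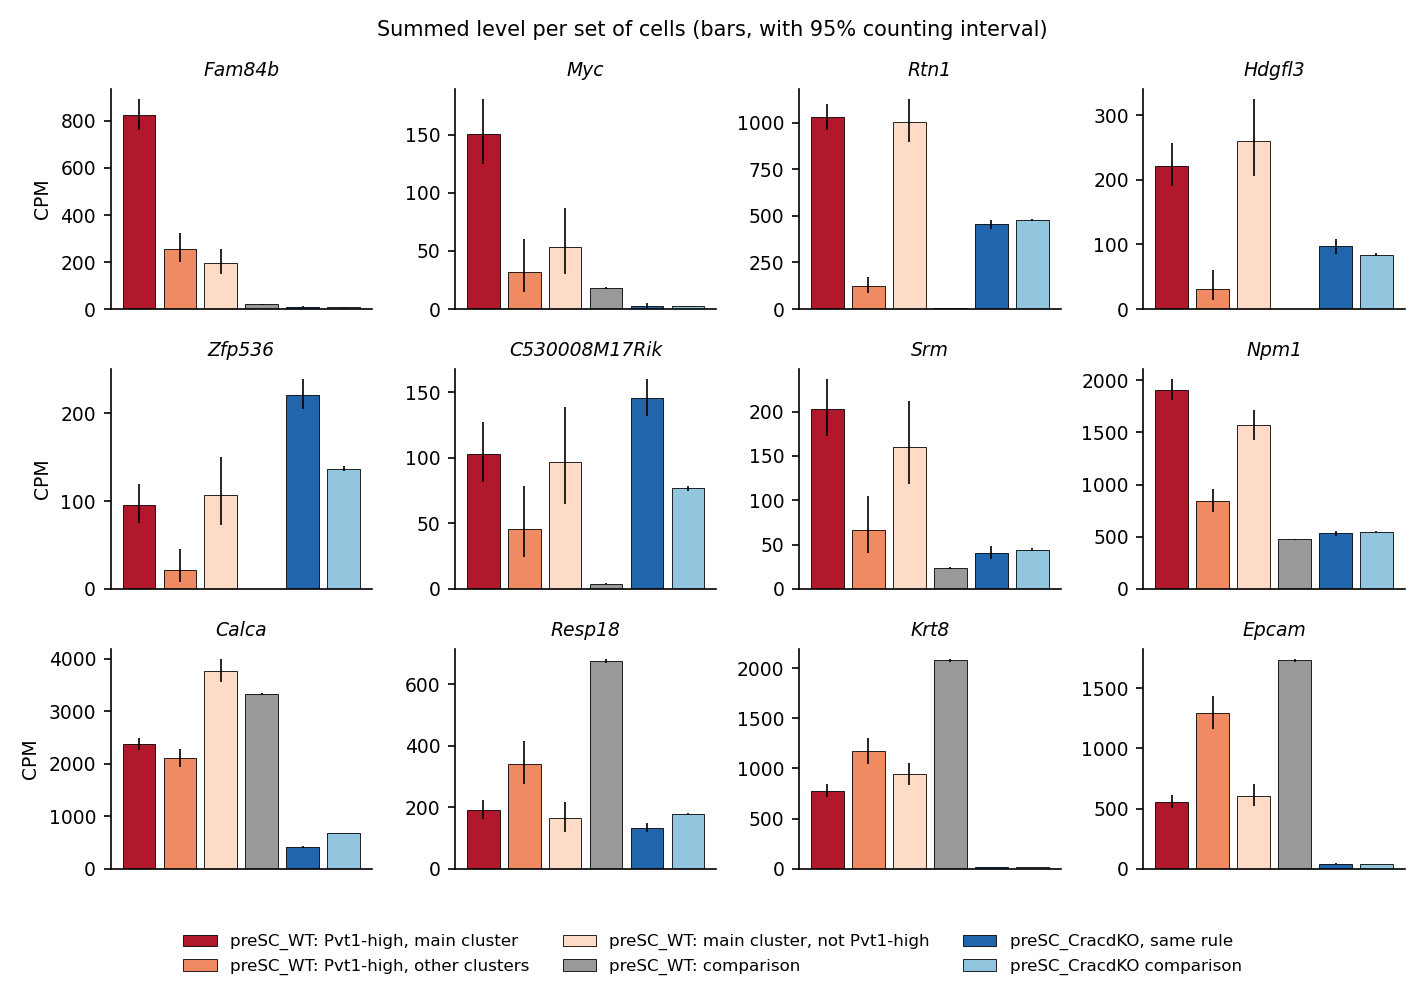
Bars give the summed level in CPM of 12 genes, with 95% counting intervals, in 6 sets of cells, from left to right the Pvt1-high cells in and outside the main cluster, the other cells of that cluster, the comparison cells, and the same-rule and comparison cells of preSC_CracdKO. Fam84b and Myc are highest in the Pvt1-high cells of the main cluster, whereas Rtn1, Hdgfl3 and Zfp536 reach 1028, 222 and 94.97 CPM in those cells and 1004, 260.1 and 107 CPM in the other cells of the cluster.

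Among the 12 lowest genes, 5 had 0 or 1 UMI in the Pvt1-high cells, and few comparison cells held most of the comparison UMIs of Krt14, Lgals7, Igha and Igkc. Krt14, a basal keratin, had no UMI in the Pvt1-high cells and 58.7 CPM in the comparison cells, at least 21.0-fold lower against the floor of 3 UMIs (the exact 95% interval starts at 17.1-fold), and 99.7% of its comparison UMIs lay in 22 cells of 1 cluster. Lgals7, a galectin of stratified epithelia, was likewise at 0, with 96.9% of its comparison UMIs in those cells. The antibody genes Igha and Igkc had 0 and 1 UMI in the Pvt1-high cells, and 1 cluster with 18 comparison cells held 93.6% and 96.2% of their comparison UMIs. A single comparison cell held 1225 of the 1309 Igha UMIs, and likewise 1 cell held 6338 of the 9337 Igkc UMIs. Sfn, a cell cycle inhibitor of epithelia, had 1 UMI in the Pvt1-high cells and 20.0 CPM in the comparison cells, and of its comparison UMIs 31.2% were in the Krt14 cluster.

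The other low genes, apart from Hbb-bs, had a UMI in 10.4 to 19.3% of comparison cells. Slc9a9, an endosomal sodium and proton exchanger, had 3.72 CPM in Pvt1-high and 38.3 CPM in comparison cells. The noncoding gene Gm20756 had 4.65 and 42.2 CPM, Ehf, an epithelial transcription factor, 5.59 and 33.7 CPM, and Tgfb1, a growth inhibitory cytokine, 3.72 and 22.5 CPM. Kcnq1, a potassium channel, had 3.72 and 21.8 CPM, and Unc13b, which primes vesicles for release, 3.72 and 21.7 CPM. Of the comparison UMIs of Ehf, 43.8% were in 1 cluster with 1052 comparison cells, and 40.8% of those of Tgfb1 in another with 1234. Each of these 6 ratios rests on 4 to 6 UMIs in the Pvt1-high cells. Haemoglobin Hbb-bs had 5.59 CPM in Pvt1-high and 49.7 CPM in comparison cells, and 1 comparison cell held 1924 of the 2594 UMIs.

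Gene lists were described by the median of the log2 ratio, with 1 CPM added, taken over the genes that reached 5 CPM in the higher set, and by how many differed by 1.5-fold. Over all 11565 such genes the median was -0.04, 1876 (16.2%) were higher and 2384 (20.6%) lower. In the main cluster set over comparison cells outside it, 2400 of 11742 (20.4%) were higher and 3212 (27.4%) lower. Myc target genes had the highest median of the 24 lists, 0.79, and 23 of 34 were higher and none lower. Srm, which makes spermidine, had 167 CPM in Pvt1-high and 23.4 CPM in comparison cells, a ratio of 7.12 (6.05 to 8.33). Mrto4, a ribosome assembly factor, had 142 and 33.8 CPM. Both lie in a stretch of chromosome 4 where most genes were higher, described with the chromosomes, and the other 32 members had a median of 0.75, with 21 higher and none lower. Npm1, a nucleolar chaperone, had 1627 and 476 CPM, and Ldha, the enzyme that makes lactate, 538 and 205 CPM.

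Per cell, Npm1 had a median of 13 UMIs in the Pvt1-high cells and 2 in the comparison cells, and the ranges overlapped. The 34 Myc targets had a median of 0.90 in the Pvt1-high cells of the main cluster and 0.57 in the other cells of that cluster, and 27 of 34 were higher in the Pvt1-high cells of the cluster. The cells chosen by the rule in preSC_CracdKO had a median of 0.12 over the list, below the 0.18 of all genes in that comparison. None of 34 was higher and none lower there, where 15.4% of all genes were higher and 2.17% lower. By Pvt1 UMIs, the bins of 4 to 9, 10 to 29 and 30 or more had 133 CPM (99.7 to 173), 159 CPM (122 to 205) and 225 CPM (173 to 287) of Srm, and the intervals of neighbouring bins overlapped.

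Promoters of the list were searched for the E-box CACGTG, which reads the same on both strands, from 250 bases before to 50 after the start of each gene in RefSeq (GRCm38.p6). A window was available for 30 of the 34 measured genes. It held the motif in 8 genes (26.7%), against 12% of all measured genes with a window. Among the list members higher by 1.5-fold or more, 4 of 20 held it, and 4 of 10 among the others did. The promoters of Ldha and Hspd1, a mitochondrial chaperone with 486 CPM in Pvt1-high and 234 CPM in comparison cells, are shown as the list members with the motif whose ratios were highest, each by 1 window that holds it. The first lies on the plus strand at chr7:46845554-46845853 and the other on the minus strand at chr1:55088194-55088493, each is written 5' to 3' on the gene's strand, and capitals mark CACGTG.
Ldha: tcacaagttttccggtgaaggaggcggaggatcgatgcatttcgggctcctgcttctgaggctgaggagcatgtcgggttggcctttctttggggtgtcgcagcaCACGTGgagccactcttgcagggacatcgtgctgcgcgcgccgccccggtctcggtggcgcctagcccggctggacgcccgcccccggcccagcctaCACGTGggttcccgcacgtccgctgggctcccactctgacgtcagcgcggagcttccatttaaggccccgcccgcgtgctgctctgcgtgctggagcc
Hspd1: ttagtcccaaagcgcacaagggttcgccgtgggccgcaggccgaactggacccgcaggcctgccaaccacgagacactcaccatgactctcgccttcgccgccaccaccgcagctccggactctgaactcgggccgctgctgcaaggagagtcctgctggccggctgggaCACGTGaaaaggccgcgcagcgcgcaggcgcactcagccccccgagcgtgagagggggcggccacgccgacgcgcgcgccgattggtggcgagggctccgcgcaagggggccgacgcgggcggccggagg
The motif starts 145 and 48 bases before the start of Ldha and 80 bases before that of Hspd1. Srm, with the largest ratio of the list, had no window in the table, and that of Mrto4 held no match.

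Genes of the cytosolic ribosome followed, with a median of 0.51 and 19 of 50 higher and none lower. Rpl22 had 867 CPM in Pvt1-high and 302 CPM in comparison cells, and Rps7 had 4206 and 1810.3 CPM. Rpl12 and Rps29 had ratios of 2.07 and 2.05. Nuclear genes of the respiratory chain had a median of 0.31, with 5 of 29 higher and 2 lower, and Sdhb, a subunit of succinate dehydrogenase, had 303 CPM in Pvt1-high and 112 CPM in comparison cells. Glycolysis genes had a median of 0.19, with 5 of 19 higher and 4 lower, and Eno1 and Aldoa, glycolytic enzymes, had ratios of 3.61 and 2.68, whereas Ndrg1, a hypoxia-induced gene, had 8.38 CPM in Pvt1-high and 28.3 CPM in comparison cells. The mitochondrially encoded genes had a median of -0.10, and none of 13 was 1.5-fold higher or lower.

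Other members of the Myc network differed less than Myc. Of 11 members measured, Myc among them, Myc and Max were higher and Mxd1 lower by 1.5-fold. Max, the partner of Myc, had 60.5 CPM in Pvt1-high and 39.9 CPM in comparison cells, a ratio of 1.52 (1.17 to 1.94). Mxd1, which competes with Myc for Max, had 18.6 and 30.8 CPM, a ratio of 0.604 (0.368 to 0.936). The other Max partners and relatives Mxi1, Mxd4, Mlx, Mxd3, Mlxip, Mga and Mnt had ratios of 0.673, 0.695, 0.713, 0.809, 0.899, 1.08 and 1.10. Mycl had 7 UMIs in the Pvt1-high cells, or 6.52 CPM, against 9.36 CPM in the comparison cells.

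Neuroendocrine genes were mixed. Of 25 measured, 4 were higher and 9 lower, with a median of -0.44. Resp18, a secretory granule protein, had 230 CPM in Pvt1-high and 676 CPM in comparison cells, and Dll3, a Notch ligand of these tumours, 31.7 and 62.0 CPM. Pcp4, a calmodulin regulator of neurons, had 120 and 2.01 CPM, a ratio of 59.6 (45.7 to 77.9), and Tubb3, a neuronal tubulin, 149 and 65.3 CPM. Of 17 lineage factors of small cell lung cancer, 3 were higher and 8 lower. Sox2, a stem cell factor, had 32.6 and 3.82 CPM, Sox11, a factor of immature neurons, 355 and 139 CPM, and Id1 and Id3, inhibitors of proneural factors, had ratios of 0.329 and 0.333.

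Genes of neural development had a median of -0.12, with 5 of 16 higher and 5 lower. Myt1l, a neuronal repressor, had 141 CPM in Pvt1-high and 2.70 CPM in comparison cells, Nrg1, a ligand of Erbb receptors, 97.7 and 1.84 CPM, and Dcx, a microtubule protein of young neurons, 27.9 and 2.95 CPM. Pou3f2, a neuronal factor, had 20.5 and 48.7 CPM. Among growth factor receptors and ligands the median was -0.38, with 2 of 16 higher and 7 lower. Igfbp2, which binds insulin-like growth factors, had 74.5 and 13.9 CPM, whereas Met and Egfr, receptor kinases, had ratios of 0.244 and 0.502. Of 11 Notch pathway genes 1 was higher and 5 lower, with a median of -0.23, and the coactivator gene Maml2 had a ratio of 0.318.

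Epithelial genes were lower as a group, with a median of -0.61, none of 15 higher and 9 lower. Krt8 had 883 CPM in Pvt1-high and 2079 CPM in comparison cells, Epcam 753 and 1732 CPM, and Cldn6, a tight junction protein, 11.2 and 30.1 CPM. Krt8 per cell had a lowest value of 0, a median of 4 and a highest value of 103 UMIs in the Pvt1-high cells, against 0, 8 and 193 in the comparison cells. Of 8 mesenchymal genes measured, 1 was higher and 5 lower, with a median of -0.76, and Zeb2, a repressor of epithelial genes, had 38.2 CPM in Pvt1-high and 92.8 CPM in comparison cells. That median of few genes was -0.18 with a threshold of 3 Pvt1 UMIs and -4.69 without cells that had a Top2a or Mki67 UMI.

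The lowest medians belonged to antigen presentation and to early response genes. For MHC class I genes the median was -1.07, with 1 of 18 higher and 11 lower. H2-K1, a classical heavy chain, had 123 CPM in Pvt1-high and 291 CPM in comparison cells, H2-T23 and H2-Q4, nonclassical heavy chains, had ratios of 0.258 and 0.306, and Tapbp, a loading factor, 0.427. Dissociation and stress genes had a median of -1.03, with 2 of 22 higher and 17 lower. Atf3 had 511 and 1498 CPM in Pvt1-high and comparison cells, and Nr4a1, Klf4 and Zfp36 had ratios of 0.326, 0.302 and 0.262. Many of these early response genes are known to be induced when tissue is digested.

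Genes of the unfolded protein response had a median of -0.54, with 1 of 17 higher and 7 lower. Ddit3, a stress factor, had 34.4 CPM in Pvt1-high and 76.9 CPM in comparison cells, and Asns, asparagine synthetase, 96.8 and 53.5 CPM. Type I interferon genes had a median of -0.52, with 1 of 13 higher and 5 lower. The higher one was Usp18, which limits interferon signalling, with 32.6 and 9.42 CPM. Ifi27, Cmpk2 and Rsad2 of the same list had ratios of 0.790 (0.680 to 0.913), 0.687 (0.448 to 1.01) and 0.679 (0.425 to 1.03). For p53 targets the median was -0.43, with 2 of 15 higher and 6 lower, and it was -0.10 with a threshold of 3 Pvt1 UMIs and -0.12 with the median of each chromosome taken off. Pvt1, itself a known p53 target, was left out of this median and count. Cdkn1a, the cell cycle inhibitor p21, had 210.4 and 625.5 CPM, Plk2 and Trp53inp1 had ratios of 0.393 and 0.315, and Aen, a nuclease of cell death, had 54.0 and 16.8 CPM.

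The S phase list had a median of 0.09, with 4 of 24 higher and 1 lower, among them Ccne1, with 66.1 CPM in Pvt1-high and 26.9 CPM in comparison cells, and Rrm2, with 136 and 65.5 CPM. For G2 and M phase genes the median was -0.13, with 1 of 25 higher and 3 lower, and it was -0.41 with comparison cells weighted to the depth of the Pvt1-high cells and -0.59 with a threshold of 6 Pvt1 UMIs. In the Pvt1-high cells of the main cluster it was -0.50, with none of 25 higher and 11 lower. Top2a, a topoisomerase of cycling cells, had 206 CPM in the 106 Pvt1-high cells of the main cluster, 685 CPM in the 20 outside it and 421 CPM in the comparison cells. The Rb and E2f family had a median of -0.13, with 1 of 18 higher and 2 lower. Its lower members were Cdkn2c, an inhibitor of Cdk4, with 106 CPM in Pvt1-high and 291 CPM in comparison cells, and the retinoblastoma gene Rb1 with 106 and 191 CPM. Rb1 had a log2 ratio of -0.84 and lies on chromosome 14, whose measured genes had a median of -0.54. A 3' tag need not lie in a deleted part of Rb1, so its RNA does not show an intact gene.

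The remaining lists lay near the median of all genes. Actin capping and filament genes had a median of -0.13, with 4 of 29 higher, Cracd and the actin binder Tmsb10 among them, and 6 lower, among them the adhesion protein Vcl with 106 CPM in Pvt1-high and 232 CPM in comparison cells. Genes of the Polycomb repressive complex 2 had a median of 0.14, with 1 of 12 higher and 2 lower. Nuclear long noncoding RNAs had a median of 0.15, with 3 of 8 other than Pvt1 higher and 2 lower, and Neat1 had 46.5 CPM in Pvt1-high and 122 CPM in comparison cells.

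**Figure D4:**
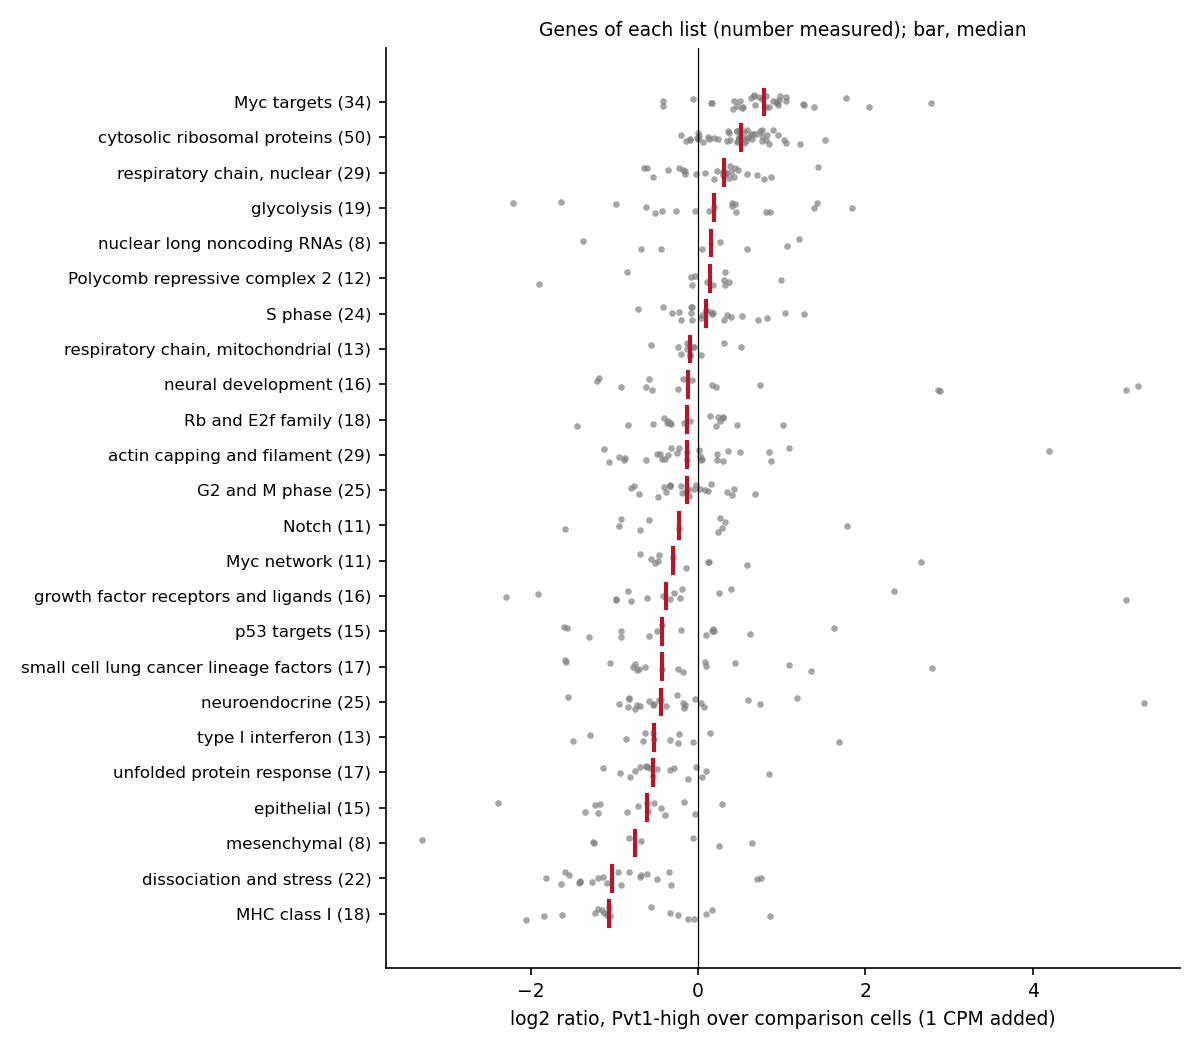
Each grey point is a gene of a list with at least 5 CPM in the higher set, placed by its log2 ratio of Pvt1-high over comparison cells with 1 CPM added (x axis), and each red bar is the median of the list. Myc targets and ribosomal proteins have the highest medians, 0.79 and 0.51, and MHC class I and dissociation and stress genes the lowest, -1.07 and -1.03.

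The ratios differed by chromosome. Over genes with at least 5 CPM the median log2 ratio was 0.43 for chromosome 12 (456 genes) and 0.30 for chromosome 3 (548 genes), and it was -0.54 for chromosome 14, -0.53 for chromosome 9, -0.50 for chromosome 19 and -0.37 for chromosome 13. Of the chromosome 14 genes 46.8% were lower by 1.5-fold or more, against 20.6% of all genes, and of the chromosome 12 genes 39.0% were higher, against 16.2%. For chromosome 15, which carries Pvt1, the median was 0.05.

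The pattern was seen cell by cell. Of all Pvt1-high cells, 106 of them in the main cluster, 95.2% lay below the comparison median for the share of UMIs from chromosome 14. For chromosome 9, 96.0% lay below it, and for chromosome 12, 4.76% did. For chromosomes 14 and 12, every Pvt1-high cell that departed from the pattern lay outside the main cluster. These shares thus mostly describe the main cluster, and the pattern was less uniform outside it. Clustering could draw on genes of these chromosomes, so no test follows from the cells of the main cluster. Chromosome 14 genes made up a median of 2.04% of the UMIs in its 106 Pvt1-high cells (10th to 90th percentile 1.73 to 2.44%), against 3.21% in the comparison cells (2.47 to 3.97%), and all 106 cells lay below the comparison median. For chromosome 9 the medians were 3.16 and 4.93%, and 105 of the 106 cells lay below. For chromosome 12 they were 5.33 and 3.51%, and all 106 lay above. In the 57 other cells of the cluster the median log2 ratios were -0.68, -0.64 and 0.61 for chromosomes 14, 9 and 12. In the rule's cells of preSC_CracdKO all of these were between 0.07 and 0.22, beside a median of 0.18 over all genes there. The cause was not tested. With the median of each chromosome taken off, 345 genes were higher and 412 lower.

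A stretch at the end of chromosome 4 differed from the rest of that chromosome. It was chosen after its values were seen, from Mrto4 on, which holds the gene starts between 139.3 and 156.2 Mb. Its 129 genes with at least 5 CPM had a median log2 ratio of 0.77 in the Pvt1-high cells, and 65.9% were higher by 1.5-fold or more and 4.65% lower. The other 594 genes of chromosome 4 had a median of -0.03, with 15.7% higher and 16.7% lower. In the 57 other cells of the main cluster the stretch had a median of 1.19 and the rest of the chromosome 0.01. Clustering could draw on genes of the stretch, so no test follows from those 57 cells. In the rule's cells of preSC_CracdKO the stretch and the rest had 0.13 and 0.20, beside 0.18 over all genes there. The stretch holds Srm and Mrto4 of the Myc targets, Rpl22, Eno1 and Sdhb. Without its genes the medians were 0.50 for the cytosolic ribosome, 0.16 for glycolysis and 0.30 for the respiratory chain. What set this stretch apart was not tested.

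**Figure D5:**
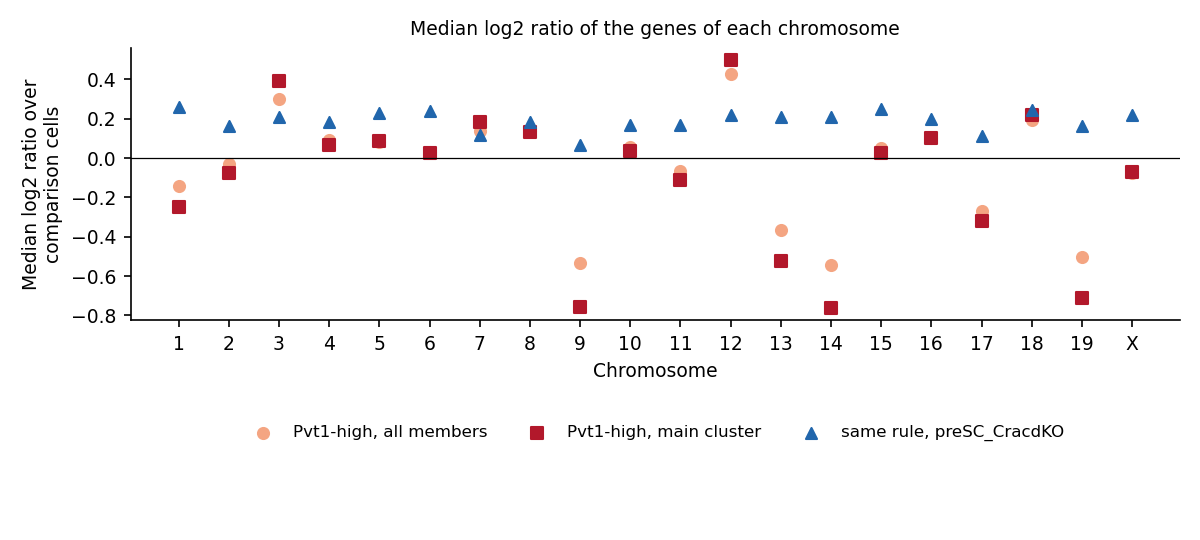
Points give the median log2 ratio over comparison cells of the genes of each chromosome with at least 5 CPM, for all Pvt1-high cells (circles), those of the main cluster (squares) and the cells chosen by the same rule in preSC_CracdKO (triangles). Chromosomes 3 and 12 are above 0 and chromosomes 9, 13, 14 and 19 furthest below it in the Pvt1-high cells of the main cluster, at 0.39, 0.50, -0.76, -0.52, -0.76 and -0.71 in that order.

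RNA of the Y chromosome was present in the Pvt1-high cells and scarce in the comparison cells. The 4 Y-linked genes Eif2s3y, Ddx3y, Uty and Kdm5d, expressed in male cells of many tissues, summed to 95.9 CPM (78.3 to 116) in the Pvt1-high cells and 7.38 CPM (6.66 to 8.16) in the comparison cells. At least 1 UMI was found in 61 of 126 Pvt1-high cells (48.4%) and in 3.27% of comparison cells. The sum was 122 CPM (98.5 to 148) in the 106 Pvt1-high cells of the main cluster. In the 20 outside it, it was 24.6 CPM (9.89 to 50.7), from 7 UMIs in 5 cells, so most of this RNA was in the main cluster. Cells with a UMI of Ptprc, Col1a1 or Pecam1 had 99.0, 86.7 and 57.8 CPM. In the 95 Pvt1-high cells without any non-tumour marker UMI the sum was 117 CPM (92.3 to 146), and in the 57 other cells of the main cluster 103 CPM (70.2 to 147). Clustering could draw on the Y-linked genes, so no test follows from those 57 cells. Xist, the RNA that coats the inactive X chromosome, had 0 UMIs in the Pvt1-high cells. In the comparison cells it had 12 UMIs, or 0.230 CPM, in 9 of 9337 cells. The 2 sets held 1074223 and 52150410 UMIs in all, so these Xist counts show no difference between them.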

How the data were processed

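Single-cell RNA was measured in 4 libraries with the Chromium 3' v3.1 kit, per the labels' protocols. The deposited matrices hold raw UMI counts, whole numbers with no scaling applied. They were written by Cell Ranger 5.0.0 for both allografts and 6.1.2 for the lung tumours, per the file headers. The submitters' processing notes name mm10, Cell Ranger 6.1.2, Seurat 1.8.2 and Scanpy 1.8.2. The preSC_WT library held 93376185 UMIs.

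UMIs were summed over the cells of a set and scaled to CPM. CPM carries exact Poisson intervals and ratios exact conditional binomial intervals, at 95% and for counting error only. Genes counted as different had a ratio of 2 or more with 20 CPM in the higher set. Cells were clustered with scanpy 1.11.5 and igraph 0.11.9 (2000 variable genes, 50 components, 15 neighbours, Leiden resolution 1.0, seed 1) on Python 3.11.15, and doublets called with Scrublet. TMM factors came from edgeR 4.0.16. Gene positions came from GENCODE. Alternatives to the thresholds, scaling and cell sets are given in the closing section. The step that counts different genes was run on simulated sums with planted changes. Those sums had no spread between cells or shifts of chromosomes, unlike these data, so nothing about the counts given here rests on them.

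Named genes were the 12 highest and 12 lowest ratios, genes within 3 Mb of Pvt1 with 5 CPM, Cracd, the Myc network and up to 4 genes of each list by absolute log2 ratio among those with 20 CPM. Hspd1, Uchl1, Calca, Chga, Insm1, AC134453.1, AC160335.1, 4930402D18Rik, Gm2682, Top2a, Xist and the Y-linked genes were chosen after their values were seen. The members, lists and rules were chosen with earlier results of these data known.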

Additional observations from a re-analysis of the deposited data

How the results depend on the processing

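No paired analysis was possible because each group held 1 library. The number of Pvt1-high cells, the counts of higher and lower genes, the Myc ratio and the number of lists with a median of at least 0.5 in size (8 of 24) were recomputed under 17 other settings, and 3 chosen after seeing the data, where each applied. Leaving out cells with a Top2a or Mki67 UMI gave 68 Pvt1-high cells, 826 higher and 1353 lower genes. A threshold of 3 Pvt1 UMIs gave 224 and 173 genes and 3 lists. The mean of per-cell CPM gave 948 lower genes. A minimum of 10 CPM gave 617 higher genes, and no minimum 2255 higher and 8466 lower, since genes with few UMIs then enter. Only the Pvt1-high cells of the main cluster, set over comparison cells outside it, gave 613 and 1038 genes and a Myc ratio of 8.41. Under the other alternatives the counts stayed within 1.5 times their values. Apart from the main cluster alone, the Myc ratio lay between 5.72 and 7.97. No list median of 0.5 or more in size changed sign; that of the Myc targets ran from 0.62 to 0.91. The medians of Notch (0.07 with 6 Pvt1 UMIs or more, 0.40 without cycling cells), nuclear long noncoding RNAs (-0.15 with 6 or more, -0.01 in the main cluster) and Polycomb genes (-0.01 without cycling cells) did, and the cause was not tested. Genes with under about 20 CPM in the 126 cells rest on about 20 UMIs or fewer, so their ratios are rough, and 1 library shows nothing of the spread between tumours.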

Other observations

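Y-linked RNA was not confined to the main cluster among tumour cells: a cluster of 213 gated cells without a Pvt1-high cell had 64.1 CPM (50.5 to 80.3) of the 4 Y-linked genes, and it had 93.7 CPM of Rtn1, 30.4 CPM of Cracd and 0.844 CPM of Hdgfl3.

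The 73 gated cells with at least 2 Mycn UMIs, fewer than 4 Pvt1 UMIs and few non-tumour marker UMIs had 18.8 CPM of Fam84b and 14.7 CPM of Myc, and neither Rtn1 nor Hdgfl3 had a UMI in them. Cracd had 53.6 CPM in these cells, against 3.84 CPM in the comparison cells.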
